A study of Mus musculus with 6 samples.

Results

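The genes followed here encode the enzymes of cholesterol synthesis, the enzymes of fatty acid synthesis, desaturation and elongation, and the regulators of the SREBP transcription factors that control both routes. The 33 genes were taken by name from a list, out of 21761 genes in the count table. They comprised 18 sterol enzymes, 5 genes of SREBP control and 10 fatty acid enzymes. Of the 33 genes, 32 had counts and all 32 passed the low-count filter, which left 12807 genes in the test.

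RNA was measured in mouse long-term haematopoietic stem cells (LT-HSCs), the blood-forming cells with lasting repopulating ability, after re-expression of IMP1, an RNA-binding protein encoded by Igf2bp1. The IMP1 group had the genotype Rosa26 I/+;Mx1-Cre tg/+, in which IMP1 sits at the Rosa26 locus and is switched on by Cre, and the Control group had the genotype Rosa26 +/+;Mx1-Cre tg/+. Both groups carried Mx1-Cre, which is driven by an interferon-responsive promoter and is not restricted to stem cells, and both received poly(I-C), an interferon-inducing RNA analogue that turns it on. In both groups CD45.2 whole marrow had been placed in lethally irradiated CD45.1/2 hosts, so the cells were donor cells of a transplant and not cells of an undisturbed marrow. The sort gate was CD45.2+ LSK CD150+ CD48- CD34-, and CD45.2 is an allotype that the CD45.1/2 hosts also carry. Each library came from 200 cells sorted 8 weeks after the last injection, with 3 biological replicates per genotype. The labels used here state no age for the animals.

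Cholesterol is built from acetyl-CoA through mevalonate, isoprenoid diphosphates, squalene and lanosterol, and the early intermediates also feed protein prenylation, dolichol and ubiquinone. SREBP-2, encoded by Srebf2, mainly activates the sterol enzymes, and SREBP-1, encoded by Srebf1, mainly activates the fatty acid enzymes. When membrane sterol is low, SCAP carries the SREBP precursors to the Golgi for cleavage, and the INSIG proteins hold SCAP back when sterol is sufficient.

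Igf2bp1 matched the group labels, with 0, 0 and 1 counts in Control 1 to 3 and 1870, 2084 and 2016 counts in IMP1 1 to 3 (edgeR quasi-likelihood test, Benjamini-Hochberg adjusted p = 0.00399). Library totals ran from 25749898 to 27338450 counts in Control and from 50220629 to 67083116 counts in IMP1, so depth and genotype cannot be told apart by comparing libraries as deposited. With every library thinned to 25749898 counts, 0 genes of the set were called and the sterol enzymes had 14 of 17 negative fold changes, with a median of -0.24. The defining markers of the gate were present: Kit, the stem cell factor receptor, ran from 369 to 475 CPM (counts scaled to a common library total) in Control and from 442 to 609 CPM in IMP1, and Slamf1, which encodes CD150, from 85.3 to 124 CPM and from 80.5 to 157 CPM. Cd34 mRNA, whose protein the gate excluded, was also present, at 263 to 317 CPM in Control against 141 to 213 CPM in IMP1. The 12 LT-HSC markers summed to 1721 to 1888 CPM in Control against 2251 to 2453 CPM in IMP1. Erythroid genes, 7 of 9 listed being in the table, summed to 35.3 to 43.3 CPM in Control and to 306, 72.2 and 86.8 CPM in IMP1 1, 2 and 3. Neutrophil and monocyte genes, 9 of 10 in the table, summed to 271 to 306 CPM in Control and to 679, 493 and 225 CPM in IMP1 1, 2 and 3. That sum joins opposite directions, with 3 positive and 3 negative fold changes among the 6 tested. Prtn3, the most abundant in Control of those with a negative fold change, was at 258 ± 33.3 CPM in Control against 206 ± 7.3 CPM in IMP1. Its log2 fold change of -0.33 was the smallest in size of the negative ones. S100a8 was at 8.91 ± 3.43 CPM in Control and at 243, 171 and 11.4 CPM in IMP1 1, 2 and 3, and S100a9 at 2.56 ± 1.7 CPM and 189, 106 and 4.72 CPM. All 8 macrophage genes were in the table and summed to 37.5 to 49.9 CPM in Control against 38.9 to 59.9 CPM in IMP1, and the 6 megakaryocyte genes to 328 to 662 CPM and 231 to 441 CPM, with Gp6 at 0. The 7 B cell genes summed to 71.6 to 85.5 CPM in Control against 80 to 147 CPM in IMP1, with Ms4a1 at 0, and 7 of 8 T and NK cell genes to 3.05 to 6.61 CPM and 11.9 to 37.1 CPM, with Cd3g, Ncr1 and Gzmb at 0. The 9 stromal and adipocyte genes summed to 75.5 to 120 CPM in Control against 61.9 to 81.1 CPM in IMP1. Most of that sum was Pecam1, at 54.4 ± 21 CPM in Control against 35.8 ± 14.4 CPM in IMP1, and Lepr, at 27.1 ± 3.74 CPM and 27.8 ± 2.63 CPM. Of the fat cell genes in the list, Adipoq had 1 count, in IMP1 2, and Plin1 had 0 in every library, as did Cdh5. Lpl and Fabp4, also in the list, did have counts. Lpl was at 9.2 ± 2.01 CPM in Control against 5.18 ± 0.708 CPM in IMP1, and Fabp4 at 0.531 ± 0.488 CPM and 1.4 ± 2 CPM. The 15 cell cycle genes summed to 1401 to 1870 CPM in Control against 1154 to 2068 CPM in IMP1. That sum joins opposite directions, with 9 positive and 6 negative fold changes and 0 genes called by edgeR. Ube2c was at 10.4 ± 3.72 CPM in Control against 44.1 ± 15.6 CPM in IMP1, and Mcm3 at 269 ± 55.4 CPM against 171 ± 27.9 CPM. The negative ones were Mcm2, Mcm3, Mcm5, Pcna, Tyms and Rrm2. The 7 immediate early genes summed to 58.8 to 71.5 CPM in Control and to 76.5 to 247 CPM in IMP1. The part of other cells and of cycling in the lipid gene results was not tested.

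In both groups together the lipid synthesis genes took between 0.164% and 0.236% of a library's counts. None of the 32 tested genes passed the edgeR quasi-likelihood test at a Benjamini-Hochberg adjusted p of 0.05, where 0.211% of all 12807 genes (27 genes) did. At an unadjusted p of 0.05, 1 of the 32 was higher in IMP1 (Scd2, 3.12%, against 6.67% of all tested genes) and 2 were lower (Acat2 and Elovl1, 6.25%, against 7.63%). The groups did not overlap for 1 gene that was higher in IMP1 (Acaca, 3.12%, against 10.7% of all tested genes) and for 3 that were lower (Acat2, Srebf2 and Elovl1, 9.38%, against 11.1%). Each of these shares was below the share among all genes. Without IMP1 3 the count at an unadjusted p of 0.05 was 7, set beside all genes further below. Without IMP1 1 it was 5, with no share over all genes given here, so that count is not read as a result about the set. Over all genes the 27 calls became 0 to 2 when any 1 library was left out. DESeq2 called 2 of the 32 genes lower in IMP1, Acat2 and Elovl1 (6.25%, against 3.05% of all tested genes called lower and 5.42% called in either direction). The log2 fold changes of IMP1 against Control were positive for 12 genes and negative for 20, with a median of -0.14, beside a median of 0.03 over all tested genes. With 1 library left out the median of the set was 0.032 (IMP1 1), -0.011 (IMP1 2), -0.22 (IMP1 3) and -0.057 (Control 2). Bulk counts do not separate fewer cells of a type from less RNA per cell: these cannot be told apart here.

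The precision of the comparison differed widely among the genes. The standard error of the log2 fold change ran from 0.16 for Acat2 to 1.03 for Tm7sf2, with a median of 0.35. The 95% interval spanned 0 for 29 of the 32 genes. It lay within 1 log2 unit of 0 on both sides for 11 genes, and for the other 21 genes it reached beyond 1 log2 unit, so that a change of that size was not excluded by the interval.

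**Figure D1:**
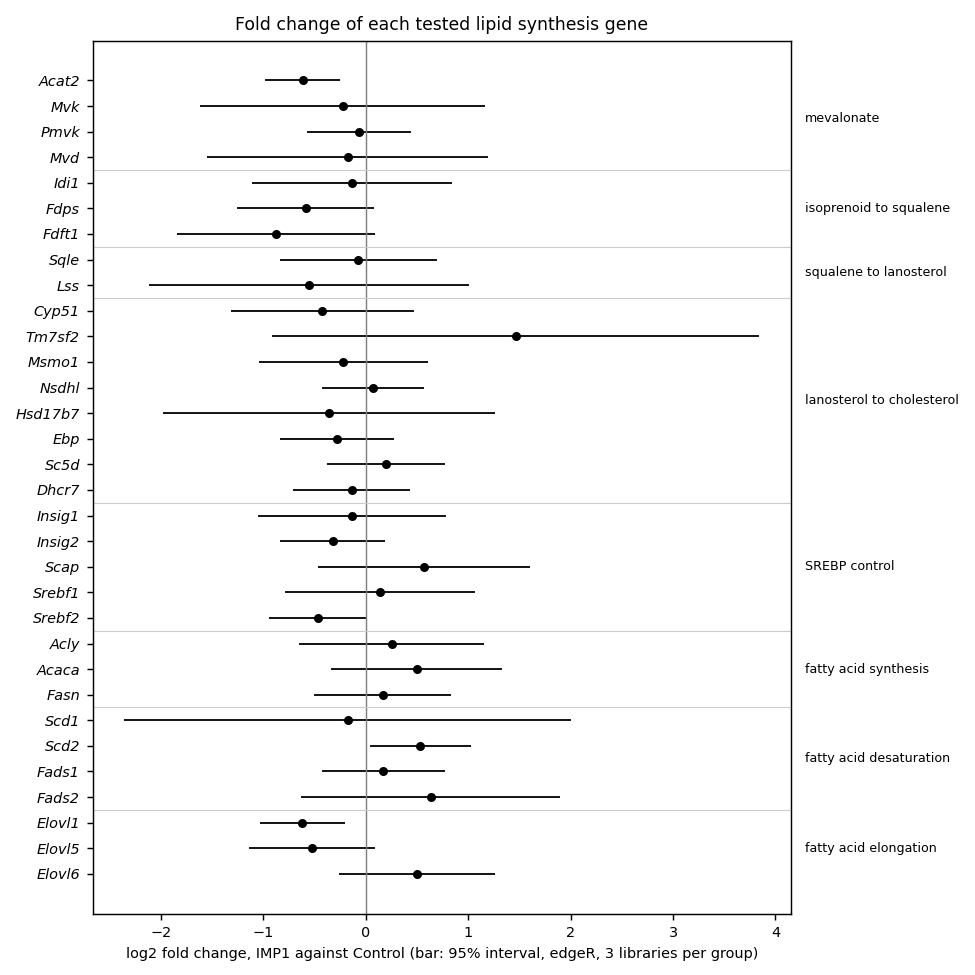
Log2 fold change of IMP1 against Control for the 32 tested lipid synthesis genes, in pathway order (points), with the 95% interval from edgeR over 3 libraries per group (bars). The intervals of Acat2, Elovl1 and Scd2 leave out 0, those of the other 29 genes span it, and Tm7sf2 has the widest.

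Levels per length, in CPM per kilobase of the longest protein-coding transcript, placed Elovl1 first in Control at 128 ± 24.5 (SD, n = 3), followed by Fdps at 102 ± 15.1, Msmo1 at 75.7 ± 22.1, Idi1 at 64.8 ± 13.4, Acat2 at 60.3 ± 9.82 and Insig1 at 49.8 ± 23.3. Each of these genes overlapped its neighbour in that order within 1 SD. In IMP1 the same 6 genes stood at 83.7 ± 13.6, 68.1 ± 26.8, 65 ± 33.4, 59.2 ± 41.9, 39.4 ± 1.36 and 45.4 ± 21.6 CPM per kilobase. The lowest levels per length in Control were those of Scd1 (0.808 ± 0.398), Tm7sf2 (1.21 ± 0.156), Acaca (1.41 ± 0.428), Fads2 (1.62 ± 0.751) and Hsd17b7 (1.99 ± 0.357). Sterol and fatty acid enzymes stood at both ends of the order.

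**Figure D2:**
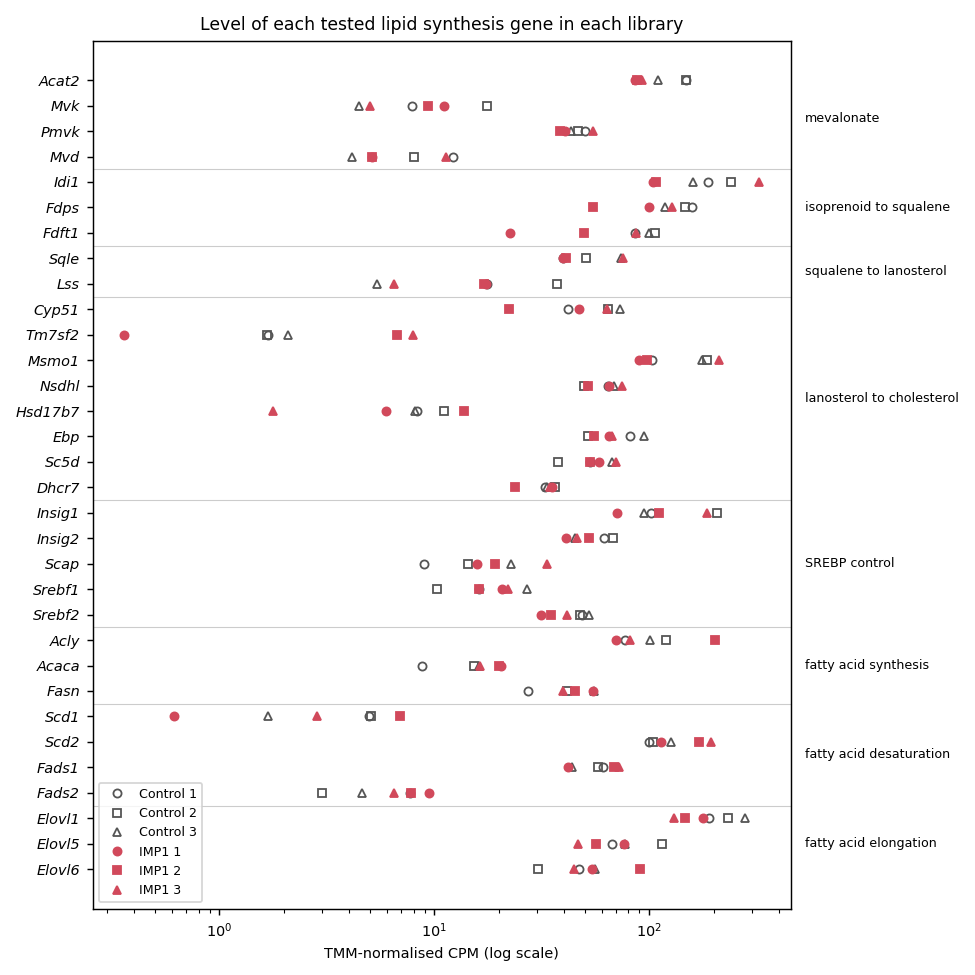
Library-scaled CPM of each of the 32 tested lipid synthesis genes in the 6 libraries (log scale, not divided by length; open symbols Control, filled symbols IMP1; circle, square and triangle for replicates 1, 2 and 3), in pathway order. The symbols of both groups interleave for 28 genes and separate for Acat2, Srebf2, Elovl1 and Acaca.

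The 250 bases before the RefSeq start of 5 genes are printed because these genes mark the range of the sterol results given below: Idi1, Msmo1 and Insig1 were each over 2 times as high in IMP1 3 as in the mean of the other IMP1 libraries, Acat2 was not, and Hmgcs1 had no counts. Sequences are from RefSeq promoters of GRCm38.p6, read 5′ to 3′ on the gene's strand. Capitals mark matches on either strand to the sterol regulatory element TCACNCCAC, the CCAAT box (which binds NF-Y, a usual partner of SREBP) and the E-box CACGTG.

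The stretches lie at chr13:8885356-8885605, + strand (Idi1), chr8:64733579-64733828, - strand (Msmo1), chr5:28071162-28071411, + strand (Insig1), chr13:119690101-119690350, + strand (Hmgcs1), chr17:12960726-12960975, - strand (Acat2).
Idi1: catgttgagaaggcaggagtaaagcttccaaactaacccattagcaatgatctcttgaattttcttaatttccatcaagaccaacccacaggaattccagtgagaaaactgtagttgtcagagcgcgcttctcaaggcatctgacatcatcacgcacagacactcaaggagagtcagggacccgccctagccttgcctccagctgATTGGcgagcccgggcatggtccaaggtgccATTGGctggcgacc
Msmo1: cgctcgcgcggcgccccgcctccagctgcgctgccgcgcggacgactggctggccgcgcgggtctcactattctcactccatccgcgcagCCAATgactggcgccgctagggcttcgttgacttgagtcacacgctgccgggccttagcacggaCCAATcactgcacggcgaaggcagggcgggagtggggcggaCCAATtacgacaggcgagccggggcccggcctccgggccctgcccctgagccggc
Insig1: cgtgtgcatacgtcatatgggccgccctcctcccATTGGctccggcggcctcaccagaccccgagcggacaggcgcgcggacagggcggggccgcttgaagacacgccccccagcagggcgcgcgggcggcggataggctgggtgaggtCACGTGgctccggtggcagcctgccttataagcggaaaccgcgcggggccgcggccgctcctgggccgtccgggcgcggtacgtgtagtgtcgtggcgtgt
Hmgcs1: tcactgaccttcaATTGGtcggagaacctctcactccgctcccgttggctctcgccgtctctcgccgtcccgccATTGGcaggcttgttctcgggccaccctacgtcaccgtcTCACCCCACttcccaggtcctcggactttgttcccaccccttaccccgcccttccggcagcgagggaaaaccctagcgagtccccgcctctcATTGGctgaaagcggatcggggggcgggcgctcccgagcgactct
Acat2: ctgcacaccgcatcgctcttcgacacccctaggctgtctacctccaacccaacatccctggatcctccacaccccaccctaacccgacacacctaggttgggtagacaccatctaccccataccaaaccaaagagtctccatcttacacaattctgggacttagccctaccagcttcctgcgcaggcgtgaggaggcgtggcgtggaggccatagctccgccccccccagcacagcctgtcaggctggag

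Idi1 held 2 CCAAT boxes, Msmo1 and Hmgcs1 3 each, and Insig1 1 together with an E-box, while Acat2 held none of the 3 marked motifs. RefSeq windows of 250 bases before to 50 bases after the start were found for 27 of the 33 genes. In these windows CCAAT was present in 22 of 27 (81.5%), against 41.1% of all 27025 gene windows and 43.3% of those of tested genes. It was absent from the windows of Acaca, Acat2, Elovl6, Scap and Fads2. Genes not printed above varied: Mvk held 5 CCAAT boxes, Nsdhl 4, Hsd17b7 3, Srebf2 1, Mvd 2 and Tm7sf2 1. In that order, IMP1 3 was 0.492, 1.28, 0.18, 1.25, 2.22 and 2.24 times the mean of IMP1 1 and 2. Whether the motifs go with that ratio was not tested. The E-box was present in 6 of 27 (22.2%; Dhcr7, Elovl5, Hsd17b7, Insig1, Sc5d and Scap), against 8.09% of all gene windows and 11.6% of those of tested genes. TCACNCCAC matched 1 of 27, Hmgcs1, against 1.44% of all gene windows. Only this exact spelling was searched, so near matches were not counted, and no match does not mean no sterol element. The Acat2 stretch holds acaccccac, which differs from that spelling only in the first base. GGGCGG, the GC box, which is not capitalised above, was present in 22 of 27 (81.5%), against 38.2% of all gene windows and 67.2% of those of tested genes. None of the searched motifs contains another, both strands were searched, and a match is a description of the letters only.

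Fold changes of IMP1 against Control were negative for 14 of the 17 tested sterol enzymes, with a median of -0.22 on the log2 scale, and none of the 17 passed the test. Over all tested genes 6127 of 12807 fold changes were negative. Without IMP1 1, and likewise without IMP1 2, 9 of the 17 were negative. The median was -0.041 without IMP1 2 and -0.087 without Control 2. Their summed level was 1094, 1241 and 1140 CPM in Control 1, 2 and 3 (1158 ± 75.3, SD, n = 3) and 793, 735 and 1317 CPM in IMP1 1, 2 and 3 (949 ± 321). IMP1 1 and IMP1 2 lay below all 3 Control libraries and IMP1 3 above them. With library totals as the only scaling, 12 of the 17 fold changes were negative, with a median of -0.12, beside a median of 0.12 over all genes under that scaling.

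The mevalonate steps comprised 5 genes, of which Hmgcs1 had no reads. Hmgcs1 encodes cytosolic HMG-CoA synthase and had 0 counts in each of the 6 libraries, together 258635165 counts. A count of 0 allows up to 0.0116 CPM over all libraries, counting error only. It was among 4616 genes with 0 counts in every library. Whether this gene was counted at all in the deposited table was not tested, and no level is read from it. The annotation places an antisense gene over 12.1% of its exon bases.

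Acat2, the cytosolic thiolase that joins acetyl-CoA units at the entry of the pathway, had the smallest unadjusted p of the set. Its levels were 149, 148 and 110 CPM in Control 1, 2 and 3 and 86.2, 87.6 and 92.1 CPM in IMP1 1, 2 and 3. All 3 IMP1 libraries lay below all 3 Control libraries, and they lay close together. The log2 fold change was -0.61 (SE 0.16, 95% interval -0.98 to -0.25), with an edgeR p of 0.0048 and an adjusted p of 0.141. DESeq2 gave an adjusted p of 0.0211, and over the 17 alternatives the adjusted p ran from 0.0211 to 0.328.

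The other mevalonate enzymes overlapped between the groups. Pmvk, phosphomevalonate kinase, was at 46.6 ± 3.54 CPM in Control against 44.6 ± 8.8 CPM in IMP1 (SD, n = 3), and its log2 fold change of -0.06 became 0.03 with library totals as the only scaling and 0.13 after removal of the length and GC trend. Mvk, mevalonate kinase, was at 9.93 ± 6.77 CPM and 8.49 ± 3.13 CPM. Mvd, the decarboxylase that makes isopentenyl diphosphate, was at 8.12 ± 4.04 CPM and 7.21 ± 3.62 CPM. The differences of Mvk, Pmvk and Mvd were smaller than the spread within either group.

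The 3 genes from isopentenyl diphosphate to squalene had negative fold changes, with a median of -0.58. Idi1, the isomerase that supplies the building block dimethylallyl diphosphate, was at 188, 240 and 160 CPM in Control 1, 2 and 3 and 104, 108 and 326 CPM in IMP1 1, 2 and 3. IMP1 1 and 2 were below every Control library and IMP1 3 was the highest of the 6. The log2 fold change was -0.13 (SE 0.42, adjusted p = 0.925, edgeR).

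Fdps, farnesyl diphosphate synthase, at the branch point to prenylation, was at 158, 147 and 118 CPM in Control against 99.6, 54.6 and 128 CPM in IMP1. IMP1 3 fell within the Control range and the others below it, for a log2 fold change of -0.58 (SE 0.29, adjusted p = 0.423). The annotation has a same-strand gene, Gm43738, over 26.7% of its exon bases, so its count is uncertain.

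Fdft1, squalene synthase, the first enzyme committed to sterols, was at 85.5, 107 and 99.6 CPM in Control against 22.4, 49.8 and 87.1 CPM in IMP1. Of the IMP1 libraries only IMP1 3 reached the Control range, and the log2 fold change was -0.87 (SE 0.42, adjusted p = 0.402). Ctsb, an abundant lysosomal protease gene on the opposite strand, covers 18.3% of the exon bases of Fdft1 and had 395 ± 74.7 CPM in Control against 335 ± 63.2 CPM in IMP1. No source used here says whether the counting used strand, so reads of both genes cannot be told apart there.

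Sqle, squalene epoxidase, was at 54.8 ± 17.4 CPM in Control against 52.1 ± 20.3 CPM in IMP1 (SD, n = 3), with a log2 fold change of -0.07 that became 0.021 with library totals as the only scaling. Lss, lanosterol synthase, was at 17.5, 37 and 5.4 CPM in Control 1, 2 and 3, a spread that exceeded its difference from the IMP1 mean of 13.6 ± 6.2 CPM. For both genes the difference was smaller than the Control SD.

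Of the 8 enzymes from lanosterol to cholesterol, 5 had negative and 3 positive fold changes, with a median of -0.18. Msmo1, the C-4 methylsterol oxidase, was at 103, 186 and 175 CPM in Control 1, 2 and 3 and 89.3, 97.9 and 211 CPM in IMP1 1, 2 and 3. IMP1 1 and 2 were just below the lowest Control library and IMP1 3 was above the highest, for a log2 fold change of -0.22 (SE 0.36, adjusted p = 0.839). Cyp51, lanosterol demethylase, was at 59.6 ± 16 CPM in Control against 44.4 ± 21 CPM in IMP1. Ebp, the sterol isomerase, was at 75.7 ± 21.7 CPM and 62.4 ± 6.34 CPM. For Cyp51 and Ebp the difference was smaller than the larger of both groups' SDs.

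Nsdhl, which removes the C-4 carboxyl group, was at 60.8 ± 9.88 CPM in Control against 64 ± 11.5 CPM in IMP1. Sc5d, the sterol desaturase, was at 52.5 ± 14.6 CPM and 60.4 ± 8.86 CPM, and Dhcr7, the last reductase of the pathway, at 34.3 ± 2.01 CPM and 31.2 ± 6.45 CPM. Hsd17b7, a sterol ketoreductase, ran from 1.77 to 13.7 CPM in IMP1, with 8.13 to 11.1 CPM in Control. For Nsdhl, Sc5d and Dhcr7 the difference was smaller than the larger SD, and for Hsd17b7 the Control values lay inside the IMP1 range.

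Tm7sf2, a sterol reductase, had the largest fold change of the set in size and the poorest precision. Its levels were 1.69, 1.66 and 2.08 CPM in Control 1, 2 and 3 and 0.361, 6.72 and 7.92 CPM in IMP1 1, 2 and 3. IMP1 1 was the lowest and IMP1 2 and 3 the highest of the 6 libraries, so the groups overlapped, and the log2 fold change was 1.46 (SE 1.03, adjusted p = 0.581). Vps51, a same-strand neighbour that shares 12.1% of its exon bases, was at 17.7, 13.8 and 32.9 CPM in IMP1 1, 2 and 3, so part of the count is uncertain.

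The regulators of SREBP showed no gene past the test. Srebf2, the source of SREBP-2, was at 48.8, 47.4 and 52.4 CPM in Control 1, 2 and 3 and 31.2, 35.1 and 41.3 CPM in IMP1 1, 2 and 3. All 3 IMP1 libraries were below all 3 Control libraries, with a log2 fold change of -0.47 (SE 0.21, 95% interval -0.94 to 0.01, adjusted p = 0.366). Over the 17 alternatives the adjusted p ran from 0.312 to 0.56.

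Srebf1, the source of SREBP-1, was at 16.2, 10.3 and 26.9 CPM in Control against 20.7, 16.2 and 22 CPM in IMP1. The IMP1 values lay inside the Control range, and the log2 fold change was 0.14 (SE 0.40, adjusted p = 0.915). Scap, the sterol-sensing escort of SREBP, was at 8.94, 14.4 and 22.7 CPM in Control against 15.8, 19.1 and 33.4 CPM in IMP1. IMP1 1 and 2 were within the Control range and IMP1 3 above it, with a log2 fold change of 0.57 (SE 0.45, adjusted p = 0.629).

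Insig1, which retains SCAP in the endoplasmic reticulum and is itself an SREBP target, was at 102, 207 and 94.8 CPM in Control against 71, 111 and 186 CPM in IMP1. Both groups ranged over more than a factor of 2, and the log2 fold change was -0.13 (SE 0.40, adjusted p = 0.918). Insig2, its paralogue, was at 61.7, 67.7 and 45.3 CPM in Control against 40.9, 52.7 and 46.2 CPM in IMP1. The groups overlapped, with a log2 fold change of -0.32 (SE 0.22, adjusted p = 0.572).

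Fold changes of the fatty acid enzymes were positive for 7 of 10, with a median of 0.21 on the log2 scale, and no gene of the 10 passed the test. The median was 0.41 without IMP1 1, 0.11 without IMP1 2, 0.32 without IMP1 3 and 0.35 without Control 3. Their summed level was 589, 722 and 758 CPM in Control 1, 2 and 3 (690 ± 89, SD, n = 3) and 618, 815 and 635 CPM in IMP1 1, 2 and 3 (689 ± 109), so the means differed by less than either SD. Whether the sterol and fatty acid enzymes differ from each other in fold change was not tested.

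The 3 enzymes that make the acyl chain had positive fold changes with a median of 0.25. Acaca, acetyl-CoA carboxylase, which supplies malonyl-CoA, was at 8.72, 15.2 and 16.2 CPM in Control against 20.5, 20 and 16.3 CPM in IMP1. All 3 IMP1 libraries were above all 3 Control libraries, the closest pair (Control 3 and IMP1 3) being 16.2 and 16.3 CPM. The log2 fold change was 0.50 (SE 0.36, adjusted p = 0.593). Fasn, the fatty acid synthase, was at 41.4 ± 13.9 CPM and 46.5 ± 7.48 CPM, and its log2 fold change of 0.17 became -0.087 after removal of the length and GC trend. Acly, which makes cytosolic acetyl-CoA from citrate, was at 99 ± 21.2 CPM and 118 ± 73.3 CPM, with IMP1 2 at 202 CPM.

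Scd2, a stearoyl-CoA desaturase that makes oleic acid from stearic acid, was the only gene of the set that was higher in IMP1 at an unadjusted p of 0.05. Its levels were 99.4, 104 and 126 CPM in Control 1, 2 and 3 and 113, 170 and 194 CPM in IMP1 1, 2 and 3. IMP1 1 lay within the Control range and the other IMP1 libraries above it. The log2 fold change was 0.54 (SE 0.21, 95% interval 0.05 to 1.024), with an edgeR p of 0.0355 and an adjusted p of 0.306. Over the 17 alternatives the adjusted p ran from 0.14 to 0.565.

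Scd1, the paralogue best known in liver, was at 0.612 to 6.93 CPM in IMP1 and 1.68 to 5.07 CPM in Control, and its count is uncertain, since no source used here says how reads matching more than 1 desaturase gene were counted. Fads1 and Fads2 encode the desaturases of polyunsaturated fatty acid synthesis. Fads1 was at 54.2 ± 9.35 CPM in Control against 61.1 ± 16.6 CPM in IMP1, and Fads2 at 5.09 ± 2.37 CPM and 7.9 ± 1.48 CPM. The groups overlapped for both.

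Elovl1, the elongase of saturated very-long-chain acyl groups used in sphingolipids, was the most abundant gene of the set per length and had lower values in IMP1. Its levels were 189, 231 and 278 CPM in Control 1, 2 and 3 and 178, 147 and 130 CPM in IMP1 1, 2 and 3. The groups did not overlap, the nearest values being 189 CPM in Control 1 and 178 CPM in IMP1 1. The log2 fold change was -0.62 (SE 0.18, 95% interval -1.03 to -0.20), with an edgeR p of 0.00867 and an adjusted p of 0.183. DESeq2 gave an adjusted p of 0.0207, and over the 17 alternatives it ran from 0.0207 to 0.385. Elovl5, the elongase of polyunsaturated chains, was at 86 ± 24.8 CPM in Control against 59.7 ± 14.9 CPM in IMP1, and Elovl6, which extends palmitate to stearate, at 44.6 ± 13.1 CPM and 63.1 ± 24.4 CPM. Both of these overlapped between the groups.

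**Figure D3:**
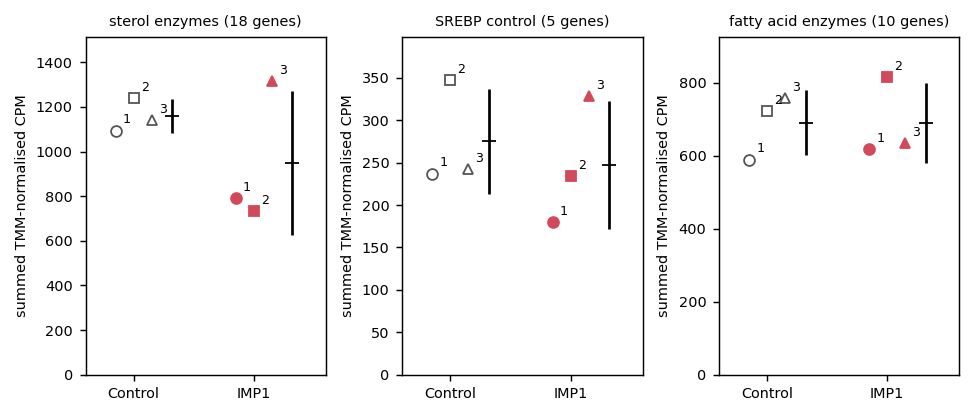
Summed library-scaled CPM of the sterol enzymes, the SREBP control genes and the fatty acid enzymes in each library (numbered points, open Control and filled IMP1), with mean and SD over 3 libraries (bars). In the sterol panel IMP1 1 and 2 lie at 793 and 735 CPM, below the Control libraries, and IMP1 3 at 1317 CPM, above them.

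Many sterol enzymes were highest in IMP1 3 within their group, a pattern that was noticed after the values were seen. Of the 3 IMP1 libraries, IMP1 3 was the highest for 13 of the 17 tested sterol enzymes (76.5%) and for 4 of the 5 SREBP control genes, while over all tested genes it was the highest for 32.3%. It was the highest for 2 of the 10 fatty acid enzymes, Scd2 and Fads1. The exceptions among the sterol enzymes were Mvk, Lss and Dhcr7, highest in IMP1 1, and Hsd17b7, highest in IMP1 2.

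Against the mean of IMP1 1 and 2, IMP1 3 was 3.07 times as high for Idi1, 2.41 times for Fdft1, 2.26 times for Msmo1, 2.24 times for Tm7sf2, 2.22 times for Mvd, 2.04 times for Insig1 and 1.87 times for Sqle. For Acat2 the ratio was 1.06. In the sterol and fatty acid lists outside the set, IMP1 3 was the highest for 5 of 11 sterol synthesis genes, 11 of 22 fatty acid synthesis and elongation genes and 9 of 21 glycerolipid genes. It was the highest for 8 of 15 genes of SREBP processing, 8 of 16 of prenylation, 7 of 15 of lipoprotein uptake, 4 of 12 of efflux and 3 of 18 of AMPK and mTORC1. Among marker lists it was the highest for 3 of 12 LT-HSC markers and 2 of 15 cell cycle genes. The neighbouring fatty acid list thus had as high a share as the neighbouring sterol list, and differences between lists were not tested. In cell cycle genes IMP1 1 was the highest for 13 of 15.

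**Figure D4:**
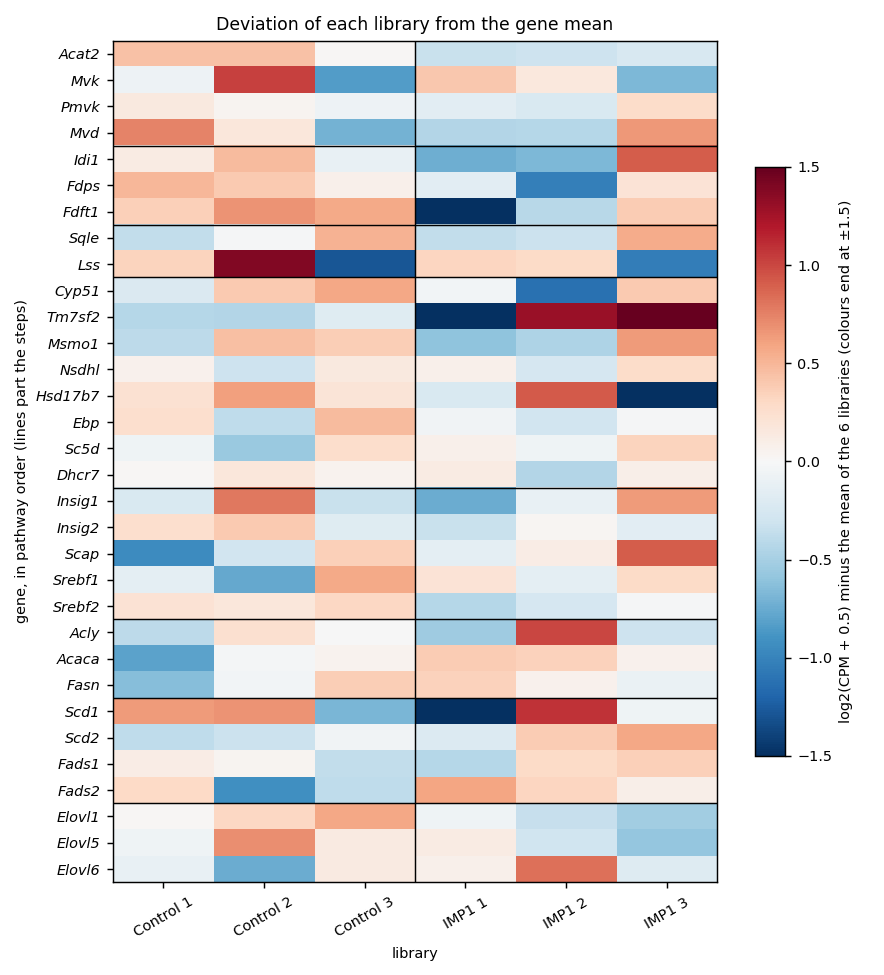
Deviation of each library from the mean of the 6 libraries for the 32 tested genes, in log2(CPM + 0.5) (red above the mean, blue below; colours end at 1.5). Of the 17 sterol rows, 8 lie below the mean in IMP1 1 and 2 and above it in IMP1 3, as do 1 of 5 SREBP control rows and 0 of 10 fatty acid rows. This pattern was chosen after the values were seen. Its share over all tested genes is not given here, and the difference between the classes was not tested.

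Leaving out IMP1 3 lowers, by construction, the IMP1 mean of every gene that was highest in it, so the values without it describe that library and are no separate support. In that fit 7 of 32 genes were lower in IMP1 at an unadjusted p of 0.05 (21.9%), against 6.89% of the 12941 genes tested in that fit. These were Idi1, Fdft1, Acat2, Fdps, Msmo1, Elovl1 and Srebf2, and none passed the adjusted threshold. The log2 fold change of Idi1 moved from -0.13 to -0.89 (edgeR adjusted p = 0.202, range over the 17 alternatives 0.202 to 0.986) and that of Fdft1 from -0.87 to -1.43 (adjusted p = 0.227, range 0.173 to 0.582). The median of the sterol enzymes was -0.33 without IMP1 3, -0.23 without IMP1 1 and -0.04 without IMP1 2. Idi1, Fdft1, Fdps and Msmo1 were thus low in IMP1 1 and 2 and within or above the Control range in IMP1 3, while Acat2, Elovl1 and Srebf2 were low in all 3.

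Fold change went with transcript length in this data set, for all genes and for the lipid genes. Across genes, which are not independent replicates, Spearman's rho of length with log2 fold change was 0.213 over 12347 tested genes and 0.286 over the 32 lipid synthesis genes. The 16 shorter genes of the set (1194 to 3027 bases) had a median log2 fold change of -0.20, with 14 negative, and the 16 longer (3150 to 10050 bases) a median of 0.17, with 6 negative. Of all tested genes up to 3027 bases 58.2% were negative (median -0.10), and of those from 3150 bases 37.9% were (median 0.15). With a smooth trend on length and GC content removed per library, the fold change of Acat2 was -0.52, that of Elovl1 -0.45 and that of Scd2 0.41, and 0 genes of the set were called. The median of the set was then -0.08, where it had been -0.14. That of the sterol enzymes moved from -0.22 to -0.13, with 13 of 17 negative, and that of the fatty acid enzymes from 0.21 to 0.20.

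**Figure D5:**
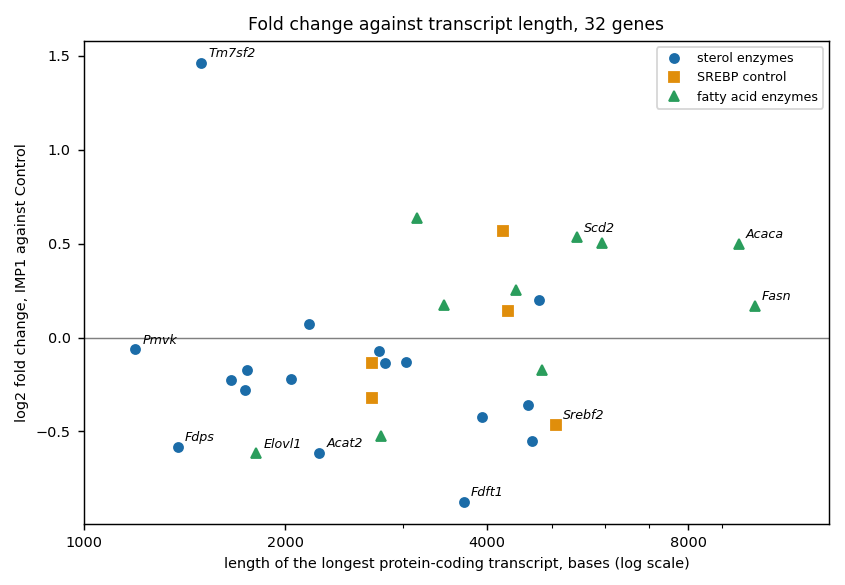
Log2 fold change of IMP1 against Control (vertical) against the length of the longest protein-coding transcript in bases (horizontal, log scale) for the 32 tested genes (circles sterol enzymes, squares SREBP control, triangles fatty acid enzymes). Of the 16 shorter genes 14 lie below 0, and of the 16 longer ones 6 do.

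Neighbouring genes of the pathway were described from 8 lists chosen with earlier results of these data in view. Together they held 127 tested genes of 141 in the table, of which edgeR called 0, with 63 positive and 64 negative fold changes. At an unadjusted p of 0.05, 6 were higher (4.72%, against 6.67% of all tested genes) and 14 lower (11%, against 7.63%). DESeq2 called 9 (7.09%, against 5.42% of all tested genes), among them Acat1, Erg28, Vldlr, Lpcat3, Chm and Prkag1.

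Sterol synthesis genes outside the set had 3 positive and 8 negative fold changes of 11 (median -0.23). Acat1, the mitochondrial thiolase, was at 281 ± 5.96 CPM in Control against 183 ± 8.37 CPM in IMP1 (SD, n = 3), for a log2 fold change of -0.62 and an adjusted p of 0.0614. Erg28, a scaffold of the sterol demethylation enzymes, was at 174 ± 17.6 CPM and 114 ± 26 CPM, and Cyb5a, the cytochrome that donates electrons to them, at 318 ± 24.4 CPM and 271 ± 38.9 CPM.

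Genes of SREBP processing and sterol sensing had 10 positive and 5 negative fold changes of 15 (median 0.34). Rnf145, an E3 ligase that acts on SCAP, was at 18.2 ± 4.09 CPM in Control against 37 ± 8.74 CPM in IMP1 (adjusted p = 0.193). The most abundant genes per length were Pgrmc1, at 158 ± 27.8 CPM and 199 ± 35.3 CPM, and Ufd1l, at 110 ± 20.6 CPM and 87.5 ± 13.5 CPM.

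Genes of lipoprotein uptake and lysosomal cholesterol had 3 positive and 12 negative fold changes of 15 (median -0.28). Vldlr, the very-low-density lipoprotein receptor, was at 49.4, 86.9 and 149 CPM in Control 1, 2 and 3 and 21, 15.9 and 16.7 CPM in IMP1 1, 2 and 3. Every IMP1 library was below every Control library, and the log2 fold change was -2.41 (SE 0.39, adjusted p = 0.0614, range over the 17 alternatives 5.86e-09 to 0.2). The lysosomal genes Npc2 and Lipa were at 276 ± 16.8 CPM and 68.2 ± 7.98 CPM in Control and at 233 ± 32.7 CPM and 54.4 ± 9.86 CPM in IMP1.

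Genes of efflux, storage and LXR targets had 5 positive and 7 negative fold changes of 12 (median -0.20). Lpcat3, a phospholipid acyltransferase and LXR target, was at 94 ± 17 CPM in Control against 53.3 ± 13.2 CPM in IMP1 (adjusted p = 0.178). Abcg1, a sterol exporter, was at 483 ± 108 CPM and 338 ± 55.1 CPM (adjusted p = 0.273). Genes of prenylation, dolichol and ubiquinone had 9 positive and 7 negative fold changes of 16 (median 0.15). Chm, the Rab escort protein, was at 14.9 ± 3.12 CPM and 45.2 ± 14.2 CPM (log2 fold change 1.597, adjusted p = 0.085), and Pdss1, which makes the ubiquinone tail, at 19 ± 1.76 CPM and 10.4 ± 1.45 CPM (adjusted p = 0.291). Rabggtb and Fnta, transferase subunits for Rab and Ras family proteins, were at 106 ± 24.3 CPM and 58.7 ± 15 CPM in Control against 87.9 ± 8.33 CPM and 96.8 ± 29.6 CPM in IMP1.

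Fatty acid synthesis and elongation genes outside the set had 12 positive and 10 negative fold changes of 22 (median 0.10), with none at an unadjusted p of 0.05. Hacd2 and Tecr, the dehydratase and reductase of the elongation cycle, were at 25.4 ± 3.18 CPM and 471 ± 37.5 CPM in Control against 15.1 ± 4.29 CPM and 396 ± 52.4 CPM in IMP1. Hsd17b12, the ketoreductase of that cycle, was at 195 ± 29.8 CPM and 176 ± 36.6 CPM. Genes of fatty acid activation and glycerolipid assembly had 13 positive and 8 negative fold changes of 21 (median 0.04). Pnpla2, the triglyceride lipase, was at 121 ± 19.4 CPM and 79.2 ± 15.2 CPM, and Acsl3, an acyl-CoA synthetase, at 16 ± 4.64 CPM and 30.9 ± 14.2 CPM. Plin2, a lipid droplet coat protein, was at 131 ± 14.4 CPM and 108 ± 3.65 CPM, and Cept1, a phospholipid synthase, at 159 ± 10.3 CPM and 161 ± 28.8 CPM.

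AMPK and mTORC1 genes had 9 positive and 9 negative fold changes of 18 (median 0.02). Prkag1, a regulatory subunit of AMPK, was at 142 ± 5.93 CPM in Control against 88.7 ± 7.45 CPM in IMP1, with a log2 fold change of -0.67 and an adjusted p of 0.085. Sirt1, a deacetylase, was at 21.6 ± 8.27 CPM and 40.4 ± 15.4 CPM, and Rheb, the GTPase that activates mTORC1, at 100.1 ± 14.4 CPM and 86 ± 11.6 CPM.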

How the data were processed

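RNA-seq counts were analysed in 3 Control and 3 IMP1 libraries of mouse LT-HSCs. The deposited values are raw counts of reads for each Entrez gene, with 1 column for each library per the file headers. Per the submitters' processing notes, the tool TopHat2 2.0.10 and the build mm9 are named without a role; the counting program, strand setting and annotation are not given in the sources used here. Columns were matched to libraries by name, leaving 0 columns over.

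Symbols came from a RefSeq table of GRCm38.p6, which held 21615 of 21761 identifiers; the other 146 had 0.0645% of counts. Lengths are of the longest protein-coding transcript in GENCODE and were found for 20328 identifiers. The files' build differs from the reference, so printed coordinates are those of the RefSeq promoters only.

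Genotype was tested with edgeR 4.0.16 (quasi-likelihood F test, TMM scaling, filterByExpr, R 4.3.3) over all 6 libraries, adjusting p-values by Benjamini-Hochberg over 12807 genes, threshold 0.05. The procedure was tested on simulated data. Standard errors are the absolute log2 fold change over the square root of F. CPM are TMM-scaled and given as mean ± SD over 3 libraries. The cDNA was amplified without molecular identifiers, so counting limits cover counting error only. Libraries had 25749898 to 67083116 counts, and no pair within a group agreed within sampling noise.

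Alternatives were DESeq2 1.42.0, limma-voom (limma 3.58.1), newer edgeR settings, other scalings, filters and thresholds, the replicate number as a block, thinning to 25749898 counts, removal of a loess trend on length and GC content (span 0.4), and each library left out. The genes followed, the lists and the tests were chosen with earlier results of these data known. All genes of the set are reported, with values in every library for those with an unadjusted p under 0.05, groups that do not overlap, the 6 most abundant per length and the SREBP control genes. Of each other list, genes called, the 2 with the lowest p and the 2 most abundant per length are named. A few genes meeting this rule are not reported.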

Additional observations from a re-analysis of the deposited data

How the results depend on the processing

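Among the 574 pairs of a lipid synthesis gene and an alternative (18 settings), 541 kept the direction and side of the threshold of the fold change, 2 passed it (Acat2 and Elovl1 under DESeq2, log2 fold changes -0.61 and -0.62) and 31 changed sign, in 15 genes. Outside the left-out libraries, the sign changed for Pmvk (0.03 with library totals only, 0.13 with the length and GC trend removed), Sqle (0.021 with library totals only) and Fasn (-0.087 with the trend removed). With 1 library left out, fold changes ran from -0.58 to 0.47 for Mvk, -0.24 to 0.032 for Pmvk, -0.67 to 0.25 for Mvd, -0.89 to 0.14 for Idi1, -0.44 to 0.20 for Sqle, -1.001 to 0.25 for Lss, -0.72 to 0.00093 for Msmo1, -0.053 to 0.21 for Nsdhl, -1.25 to 0.10 for Hsd17b7, -0.23 to 0.025 for Dhcr7, -0.57 to 0.32 for Insig1, -0.13 to 0.56 for Srebf1, -0.39 to 0.52 for Acly, -0.059 to 0.43 for Fasn and -1.18 to 0.32 for Scd1.

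With 1 library left out, 0 of the set's genes were called, 2 to 7 had an unadjusted p under 0.05 (with all libraries and settings as described, 3), 5 to 10 had groups that did not overlap (otherwise 4) and the median fold change ran from -0.22 to 0.032 (otherwise -0.14). Smaller groups overlap less by construction. DESeq2 called 2 of the set and gave 5 an unadjusted p under 0.05. With the trend removed 2 had groups that did not overlap. Shares over all genes for groups that do not overlap are not given for these settings. At an unadjusted p they are given only for the fit without IMP1 3. These counts are therefore not read as a result about the set. Over all genes the calls (otherwise 27) numbered 694 with DESeq2, 11 with limma-voom, 49 with the newer edgeR settings, 16 with library totals only, 114 with a filter at a mean of 5 CPM, 12 with the trend removed, 231 at an adjusted p of 0.1, and 0 to 2 with 1 library left out. Genes of the 8 neighbouring lists called (otherwise 0) numbered 9 with DESeq2, 1 with the newer edgeR settings and 1 with no filter (Vldlr in both), 4 with the stricter filter and 6 at an adjusted p of 0.1. The causes of these shifts were not tested.

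Same-numbered libraries of the 2 groups correlated at 0.0149, 0.031 and -0.00831 in their deviations from the group means. The labels do not state that these libraries are pairs, and whether they share more than a number was not tested. With the replicate number as a block, 4 genes were called over all genes and 0 of the set.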
